A study of Mus musculus with 6 samples.

Results

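The genes described here are 9 regulators of the presomitic mesoderm and its segmentation clock: Tbx6, Msgn1, Mesp1, Mesp2, Hes7, Lfng, Dll1, Dll3 and Ripply2. They were chosen by name, as probes whose array annotation carries one of these symbols. The choice was made with earlier results of these data known. Of the 9, 8 were found, on 9 probes, and all 8 entered the test, among 15027 named genes tested in all. Ripply2 was not analysed here. The RNA came from whole mouse embryos at embryonic day 8.5 and was hybridised to Agilent 1-colour arrays, 1 array per sample. The genotype labelled Brg1d/d (Brg1 CKO) is a conditional knockout of Brg1, and Brg1fl/fl carries the floxed gene and is labelled wild type. Per the labels, the dam received tamoxifen by intraperitoneal injection, a treatment stated for both genotypes. Each genotype had 3 samples, which the series' design text calls biological replications, here CKO 1 to 3 and control 1 to 3. The labels do not state the Cre driver, the somite number or how many embryos went into a sample. Brg1, with the gene symbol Smarca4, is an ATPase of the SWI/SNF chromatin remodelling complexes.

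The presomitic mesoderm is the unsegmented tissue on either side of the tail end of the neural tube, from which somites bud off in pairs. Its cells carry a molecular oscillator in which Notch signalling switches on its own inhibitors in waves, among them the repressor Hes7 and the glycosyltransferase Lfng. Tbx6 and Msgn1 are transcription factors that give the tissue its identity, Dll1 and Dll3 are Notch ligands, and Mesp2 with Ripply2 sets the position of the next border. Mesp1 is best known for an earlier role, in mesoderm leaving the primitive streak, which includes the precursors of the heart.

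Levels are given as log2 processed signal minus the 75th percentile of the array, so a value of 0 lies at that percentile and each unit is a doubling. Values of different genes come from different probes and are not compared as levels. The 3 controls and CKO 2 were scanned on the same day, and CKO 1 and CKO 3 on a day each. The brightest spike-in control read 12950 units on CKO 1 and 6968 on CKO 3, against 219060 to 249080 on the other 4 arrays. For this reason the same-day value, CKO 2 minus the mean of the 3 controls, is given beside the differences. The controls lay on 1 slide and the CKO arrays on a slide each, so slide and genotype cannot be told apart. The brightest probe of the targeted gene, Smarca4, ranged from 1.49 to 2.65 in the CKO samples and from 4.45 to 5.28 in the controls, a difference of -2.69 ± 0.36 (SE, n = 3 and 3, limma adjusted p = 0.0114). Which exons are deleted is not stated in the labels, so whether that probe covers them was not tested.

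The probes are 60 bases long, and those of the clock genes Lfng and Hes7 are shown whole because their results differ. Both were read from the array's annotation, 5′ to 3′, in lower case.
Lfng probe: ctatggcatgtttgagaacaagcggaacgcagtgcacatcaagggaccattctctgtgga
Hes7 probe: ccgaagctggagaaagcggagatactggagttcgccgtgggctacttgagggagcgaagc
The array places the Lfng probe at chr5:139585160-139585219 and the Hes7 probe at chr11:69203729-69203788, both in build mm7 and on the plus strand. The Tbx6 probe (chr7:122882043-122882102) and the dimmer of the 2 Mesp1 probes (chr7:75660860-75660919) hold the letters of a polyadenylation signal, in capitals in the last 30 bases of each.
Tbx6 probe, bases 31 to 60: gagtatttttgttAATAAAactccaaagac
Mesp1 dimmer probe, bases 31 to 60: gtgtatttatttatttgtgAATAAAccgat
The brighter Mesp1 probe lies 138 bases away, at chr7:75661057-75661116. The Mesp2 probe, at chr7:75681692-75681751, lies 20576 bases beyond it on the same chromosome. The remaining probes lie at chr12:11272545-11272604 for Msgn1, chr17:13604553-13604612 for Dll1 and chr7:25227642-25227701 for Dll3. Exons of that build were not used here. Mesp1 and Mesp2 are related genes, but no probe of the 8 genes shared a run of over 9 bases with the probe of another of them. No other probe on the array shared 20 bases with any of them, on either strand.

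Tbx6, Lfng and Dll1 fell and Mesp1 rose in Brg1d/d embryos, while Dll3, Msgn1, Mesp2 and Hes7 did not pass the test. Thus 3 of 8 genes, Lfng among them, were lower, where 5.3% of all genes tested were called lower. Another 1 was higher, where 5.26% of all genes were called higher (4 of 8 against 10.6% in either direction). The genes were chosen with earlier results of these data known, so these counts are a description and no test of an excess. Tbx6 stood at rank 145 among the falls of the 15027 genes, Dll1 at rank 335, and Mesp1 at rank 184 among the rises. The arrays of the genotypes did not overlap for 5 of the 8 genes, against 41.9% of all genes. The median log2 difference was -0.88 over the 8 genes and 0.07 over all genes, and -0.49 over the 8 without control 1. Lfng passed the filter on dim probes through the controls, and with a filter on all 6 arrays 2 of the 7 genes left were called lower, against 5.17% of all genes. The probes of Msgn1, Mesp2 and Hes7 were also dim, at 29.5 to 99.4, 21.3 to 84.9 and 46.4 to 134 units. Those of Tbx6, Dll1 and Dll3 read 519 to 3680 units. The brighter Mesp1 probe read 47.4 to 145 units in the controls and 293 to 824 units in the knockouts. Genes that overlapped between genotypes thus had dim probes. So did Lfng, and Mesp1 in the controls, though neither overlapped. Whether dim signal bears on the calls was not tested. In RNA of whole embryos, fewer cells of a type and less RNA per cell cannot be told apart.

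**Figure D1:**
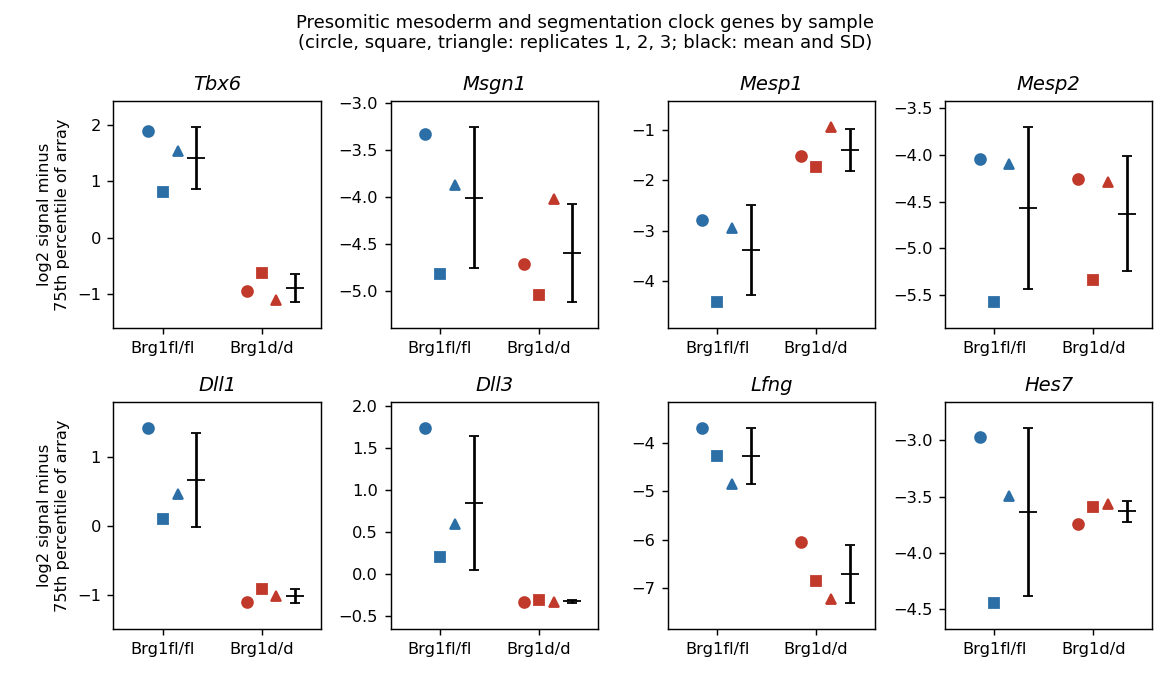
Level of each of the 8 genes in the 6 samples, as log2 signal minus the 75th percentile of the array, each panel on its own scale. Circles, squares and triangles are replicates 1, 2 and 3, and the black mark is the mean with its SD. For Tbx6, Lfng, Dll1 and Dll3 each CKO sample lies below each control, for Mesp1 above, and for the other 3 genes the genotypes overlap.

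Tbx6, the T-box factor without which presomitic cells turn into neural tissue, had levels of -0.94, -0.62 and -1.10 in CKO 1, 2 and 3. The controls read 1.88, 0.81 and 1.54. Every CKO sample lay below every control, with a gap that exceeded the spread within either genotype. Tbx6 fell 4.91-fold, by 2.30 ± 0.30 on the log2 scale (SE, n = 3 and 3, limma adjusted p = 0.0107). The same-day difference was -2.03. Without CKO 1 or CKO 3 the limma adjusted p was 0.0609 or 0.0529.

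Msgn1 encodes mesogenin, a basic helix-loop-helix factor that acts beside Tbx6 in the same cells. Its levels were -4.71, -5.04 and -4.02 in CKO 1, 2 and 3 and -3.33, -4.81 and -3.87 in controls 1, 2 and 3. The genotypes overlapped, with control 2 lower than CKO 1 and CKO 3. The difference of -0.59 ± 0.43 (SE), with a same-day value of -1.04, had a limma adjusted p of 0.378 and a 95% interval from -1.63 to 0.45. The interval thus reached from a fall of more than 2-fold to a small rise, and the data do not show that Msgn1 stayed the same.

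Dll1, the Notch ligand needed for somite borders and for the front and rear parts within each somite, was measured on 10 spots of each array. The SD over these spots was 0.0345 to 0.105 per array, so spot noise was small beside the spread between controls. Its levels were -1.11, -0.91 and -1.02 in CKO 1, 2 and 3 and 1.42, 0.10 and 0.46 in controls 1, 2 and 3. The 3 CKO samples lay close together and below the lowest control. The difference was -1.68 ± 0.34 (SE), a 3.19-fold fall (limma adjusted p = 0.0339), with a same-day value of -1.57. The adjusted p was 0.0134 without control 1, and it missed the threshold without CKO 1 (0.125), CKO 3 (0.118), control 2 (0.0569) or control 3 (0.0673).

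Dll3, a ligand of the same family that acts inside the cell and dampens Notch signalling, had levels of -0.33, -0.30 and -0.33 in CKO 1, 2 and 3. The controls read 1.74, 0.21 and 0.60. No CKO sample reached the controls, although the lowest control was much closer to them than control 1. The difference of -1.17 ± 0.38 (SE), with a same-day value of -1.15, did not pass (limma adjusted p = 0.0992). Without control 1 it was -0.73 with an adjusted p of 0.0488, so the smaller difference passed once the controls were more alike.

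Lfng encodes lunatic fringe, which adds sugars to the Notch receptor and oscillates with the clock. Its processed signal was 24.6, 8.51 and 10.7 units in CKO 1, 2 and 3 and 77.6, 52.0 and 33.5 units in controls 1, 2 and 3. It was well above background on all 3 controls but only on CKO 1 among the knockouts. On the log2 scale the levels were -6.05, -6.84 and -7.21 against -3.69, -4.28 and -4.84, and the difference was -2.43 ± 0.40 (SE), a 5.38-fold fall (limma adjusted p = 0.0196). The same-day difference was -2.56. With normexp background correction, which raises dim values, it was -0.88 (adjusted p = 0.0316), so its size depends on how values near background are treated. The call missed the threshold without CKO 3 (adjusted p = 0.0738) or control 2 (0.0856).

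A second probe, annotated only by an Ensembl transcript and described on the array as lunatic fringe, falls outside the selection by symbol and was picked after its values were seen. It lies at chr5:139586228-139586287 of mm7 and was well above background on all 6 arrays. Its signal was 97.8, 45.7 and 72.7 units in CKO 1, 2 and 3 and 372, 230 and 173 units in controls 1, 2 and 3. The difference was -2.29 ± 0.29 (SE), a 4.90-fold fall (limma adjusted p = 0.0101), with a same-day value of -2.40. With normexp the difference was -1.63 (limma adjusted p = 0.00638), so its size also depends on the background correction. Leaving out 1 array in turn gave adjusted p from 0.00625 to 0.0509, and blocks for the spike-in split and for scan day gave 0.111 and 0.271. Since it was picked with its values in view, it is a description and no independent support for the first probe.

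Hes7, the repressor whose delayed feedback drives the mouse clock, had levels of -3.74, -3.59 and -3.56 in CKO 1, 2 and 3. The controls read -2.97, -4.44 and -3.49, on both sides of the knockouts. The difference was 0.01 ± 0.36 (SE, limma adjusted p = 0.993), with a same-day value of 0.05 and a 95% interval from -0.87 to 0.88. Its sign turned under quantile, median and normexp processing, at -0.10, -0.08 and -0.12. It also turned without CKO 2, CKO 3 or control 2, at -0.015, -0.029 and -0.40. A change of somewhat under 2-fold in either direction lies within that interval.

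Mesp1, a basic helix-loop-helix factor of early mesoderm, was higher in every knockout. Its brighter probe read -1.52, -1.73 and -0.94 in CKO 1, 2 and 3 and -2.79, -4.41 and -2.95 in controls 1, 2 and 3. The difference was 1.99 ± 0.46 (SE), a 3.97-fold rise (limma adjusted p = 0.0476), with a same-day value of 1.66. With normexp it was 1.44 (limma adjusted p = 0.0267), so its size also depends on the background correction. Control 2 read only 47.4 units on this probe. The second probe read -2.05, -1.99 and -1.45 against -2.91, -4.81 and -3.28, also without overlap. Its difference of 1.84 ± 0.50 (SE) missed the threshold (limma adjusted p = 0.0675). The call on the brighter probe is close to the threshold: it held without control 1 (2.29, adjusted p = 0.0353) but not without any other single array, where adjusted p ran from 0.0505 to 0.156.

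Mesp2, its neighbour and relative, marks the anterior presomitic cells that form the next border. Its levels were -4.26, -5.34 and -4.29 in CKO 1, 2 and 3 and -4.04, -5.57 and -4.10 in controls 1, 2 and 3. In both genotypes replicate 2 was the lowest, and the ranges nearly coincided. The difference was -0.06 ± 0.50 (SE, limma adjusted p = 0.943), with a 95% interval from -1.25 to 1.13 and a same-day value of -0.77. It turned to 0.29 without CKO 2, 0.20 without control 1 and 0.18 without control 3.

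**Figure D2:**
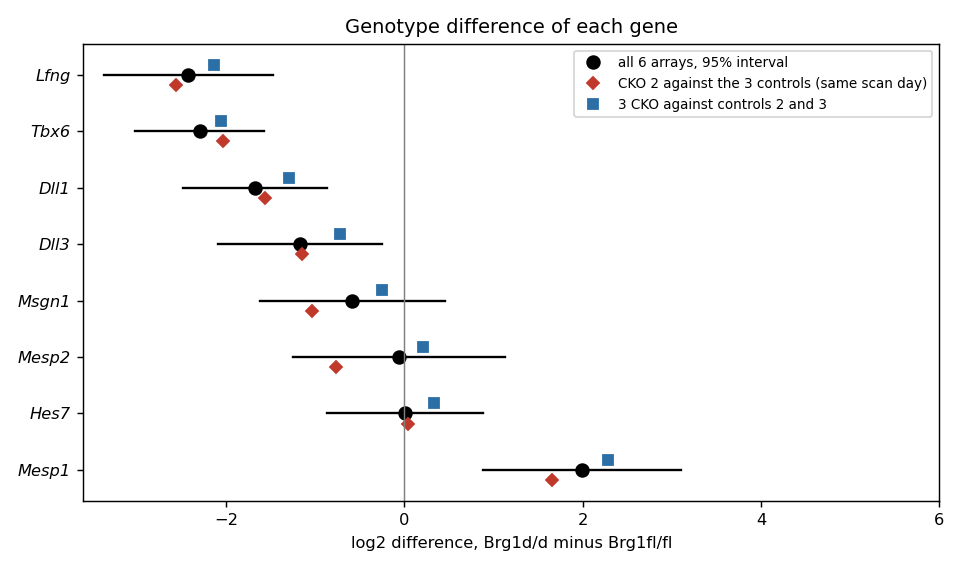
Log2 difference of each gene, Brg1d/d minus Brg1fl/fl. Black circles are the limma estimates from all 6 arrays with 95% intervals, red diamonds the same-day value of CKO 2 against the 3 controls, and blue squares the 3 CKO samples against controls 2 and 3. The 3 estimates lie on the same side of 0 for every gene but Mesp2, with those of Hes7 at 0.01, 0.05 and 0.34.

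Scan day and the spike-in split bear on all of these calls. Limma with a block for scan day called 0 of the 8 genes, with 2 lower at an unadjusted p under 0.05, and 0 of all 15027 genes (1795 at an unadjusted p under 0.05). With the spike-in split as a block it also called 0 of the 8, where 0.586% of all genes were called lower and 0.226% higher. At an unadjusted p under 0.05, 3 of the 8 were lower there, where 2226 of all 15027 genes passed in either direction. In either fit the estimate equals the same-day value and rests on CKO 2 alone. CKO 2 lay outside the range of the 3 controls in 6 of the 8 genes, against 60.2% of all genes.

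Control 1 was the highest of the 3 controls for all 8 genes, and control 2 the lowest for 7 of them, with control 3 the lowest for Lfng. For 5 of the 8, control 2 lay farther from the middle control than control 1 did, and for Dll1, Dll3 and Lfng control 1 did. The excess of control 1 over the mean of controls 2 and 3 had a median of 0.94 on the log2 scale over the 8 genes, against 0.07 over all genes tested. The excess ran from 0.70 for Tbx6 to 1.33 for Dll3. Against controls 2 and 3 alone, the difference was -2.06 for Tbx6, -2.14 for Lfng, -1.30 for Dll1 and -0.73 for Dll3. Mesp1 then differed by 2.29, a 4.88-fold excess. Over the 8 genes the median difference was -0.49 against controls 2 and 3, where all genes had 0.07. Without control 1, limma called 4 of the 8 genes lower and 1 higher, where 7.35% and 7.3% of all genes were called, and 5 of the 8 did not overlap, against 58% of all genes.

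Markers of other tissues also differed between control 1 and the other controls. All 11 yolk sac endoderm markers were lower in control 1. Summed levels are the log2 of levels added on the linear scale, so the brightest markers weigh most. The summed level was 6.59 in control 1 and 8.76 and 8.85 in controls 2 and 3. In the knockouts it was 8.48 to 8.72. Limma called 0 of these 11 between genotypes, and 0 had an unadjusted p under 0.05. All 8 primitive erythroid markers were lower in control 1 too, with a summed level of 6.12 against 7.96 and 8.11, and of 5.90 to 6.20 in the knockouts. Of these, Hemgn was called lower in Brg1d/d, and it was not well above background on 1 knockout array. All 7 neural tube markers were higher in control 1, with summed levels of 4.29, 3.69 and 2.80 in controls 1, 2 and 3 and of 2.76 to 3.02 in the knockouts, and Pax6 and Otx2 were called lower and Sox1 higher. Of 6 tested trophoblast markers of 7, Elf5, Tfap2c, Ascl2 and Hand1 were called higher in Brg1d/d, with summed levels of 4.70 to 5.15 against 3.83 to 4.44. All tested markers other than Hemgn were well above background on every array. Calls among the markers are to be read against 5.3% of all genes called lower and 5.26% called higher. The part of these tissues in the differences of the 8 genes was not tested.

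**Figure D3:**
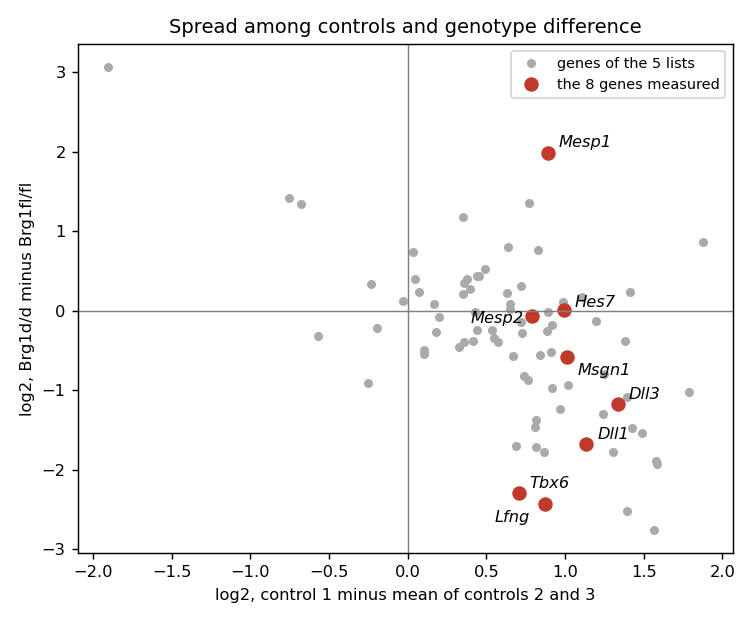
Genotype difference (vertical, log2) against the excess of control 1 over the mean of controls 2 and 3 (horizontal, log2) for the 8 genes in red and the genes of the 5 surrounding lists in grey. Control 1 enters both axes, so a downward slope arises in part by construction. All 8 genes lie right of 0, from 0.70 to 1.33, and Mesp1 lies apart from Tbx6 and Lfng although their control 1 excess is similar.

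Differences between a pair of genes within each array remove whatever scales both alike. The 4 pairs below were picked after their values were seen, so they are a description, with no test. Mesp1 minus Mesp2 was 2.74, 3.61 and 3.35 in CKO 1, 2 and 3 and 1.25, 1.15 and 1.15 in controls 1, 2 and 3. The controls were nearly identical in this measure (SD 0.0587), although Mesp1 alone had an SD of 0.89 among them. The mean difference between genotypes was 2.05, and 1.62 with normexp. Lfng minus Hes7 was -2.31, -3.24 and -3.64 against -0.71, 0.16 and -1.35. With Lfng not well above background on CKO 2 and CKO 3, the size is not settled: the genotypes differed by -2.43 in this measure, and by -0.76 with normexp. Tbx6 minus Msgn1 was 3.77, 4.42 and 2.92 in CKO 1, 2 and 3 and 5.21, 5.62 and 5.41 in the controls, a difference of -1.71. Dll1 minus Dll3 was closest between genotypes, at -0.78, -0.61 and -0.70 against -0.32, -0.11 and -0.14.

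**Figure D4:**
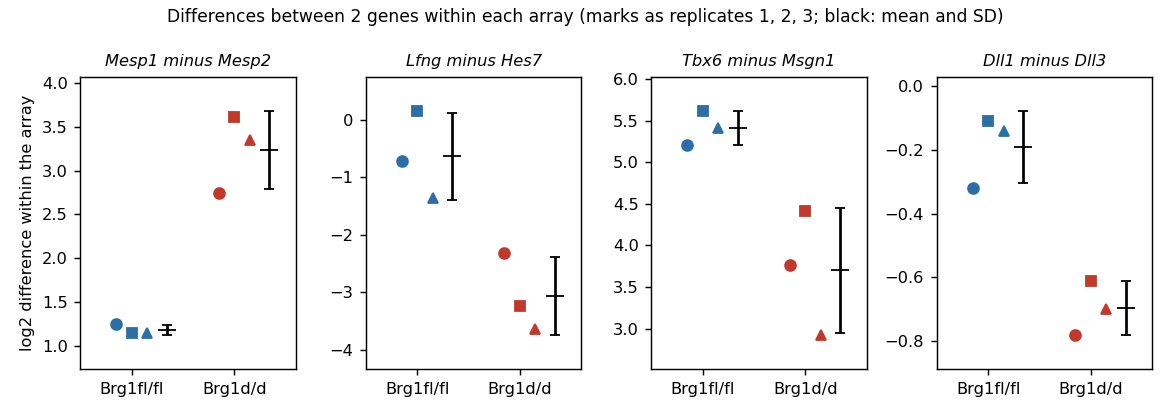
Log2 difference between the 2 genes of each pair within every array, with the mean and SD in black and replicates 1, 2 and 3 as circles, squares and triangles. Mesp1 minus Mesp2 lies at 1.15 to 1.25 in the controls and at 2.74 to 3.61 in the knockouts. The pairs were picked for their values.

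The likeness of profiles was measured as the root mean square difference over the 6 arrays, after each gene was centred on its own mean. Among the 8 genes Dll1 and Dll3 were closest, at 0.265, followed by Tbx6 and Dll1 at 0.373, and Mesp1 and Lfng were farthest apart, at 2.34. Msgn1, Mesp2 and Hes7 lay 0.395 to 0.414 from one another. Outside the 8, the search covered 14187 genes that were well above background on every array. The profiles nearest to Tbx6 were Cnn1 (0.239), which encodes calponin of smooth muscle, Synpo2 (0.253), an actin-binding protein of muscle, and Ppp1r3d (0.256), a glycogen-targeting phosphatase subunit. The median distance from Tbx6 was 1.25. Nearest to Mesp1 were Slc22a7 (0.327), an organic anion transporter, the homeobox gene Vax1 (0.348) and Trh (0.351), which encodes the precursor of thyrotropin-releasing hormone, with a median distance of 1.14.

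In the 5 surrounding lists, counts are to be read against the 5.3% of all genes called lower and 5.26% called higher, and against 14.7% lower and 17.8% higher at an unadjusted p under 0.05. Limma called 0 genes of any of the 5 lists without CKO 1, without CKO 3, or with a block for scan day or the spike-in split. Without control 2 it called 1 list gene, of the Wnt and FGF list. With no filter it called 0 in the Notch, tail bud and primitive streak lists.

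Of 19 further Notch pathway genes, 2 fell and 0 rose by limma, with 5 lower and 0 higher at an unadjusted p under 0.05. Their median log2 difference was -0.31, and -0.14 on the same day. The 2 were Notch1, the receptor of the presomitic mesoderm, and Mfng, a fringe gene related to Lfng. Notch1 fell by 1.37 ± 0.32 (SE, limma adjusted p = 0.0474), and without control 1 it missed the threshold (-1.10, adjusted p = 0.0544). Its levels were -2.50, -1.73 and -2.37 in CKO 1, 2 and 3 against -0.29, -0.96 and -1.24. Mfng fell by 1.46 ± 0.27 (SE, limma adjusted p = 0.0282). The Notch targets Hes5 and Hes1 did not pass, at -1.30 (limma adjusted p = 0.0806) and 0.21 (0.639).

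Of 20 genes of Wnt and FGF signalling around the presomitic mesoderm, 19 were measured, 4 fell and 1 rose. At an unadjusted p under 0.05, 6 were lower and 1 higher. The median difference was -0.24, and -0.30 on the same day. All 19 exceeded the mean of controls 2 and 3 in control 1, with a median excess of 0.65, and against controls 2 and 3 the median difference was -0.03. The falls were in Fgf18, Fgf17, Wnt3a and Nkd1. Wnt3a, the Wnt ligand that sustains the tail end of the embryo, read -1.19, -1.11 and -1.33 in CKO 1, 2 and 3 and 1.04, 0.02 and 0.43 in controls 1, 2 and 3. It fell by 1.71 ± 0.27 (SE, limma adjusted p = 0.0181). Fgf18 fell by 2.75 ± 0.45 (SE, 0.0195) and Fgf17, well above background on 2 of 3 CKO arrays, by 2.51 ± 0.59 (SE, 0.0477, and 0.0633 without control 1). Fgf17 thus passed the filter on dim probes through the controls. With a filter on all 6 arrays, 3 of the 18 genes left were called lower, against 5.17% of all genes. Nkd1, an intracellular antagonist of Wnt signalling, fell by 1.70 and the secreted antagonist Dkk1 rose by 1.18, with limma adjusted p of 0.0165 and 0.0137. Fgf8, whose gradient holds back differentiation, and the Wnt target Axin2 did not pass, at -0.27 (limma adjusted p = 0.443) and 0.12 (0.865). Nkd1, Dkk1, Fgf8, Axin2, Hes1 and Hes5 fall outside the rule for named genes and were picked after their values were seen.

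Of 10 tail bud genes, 1 fell and 1 rose, with 2 lower and 1 higher at an unadjusted p under 0.05. Cdx4, a caudal homeobox gene, fell by 1.78 ± 0.39 (SE, limma adjusted p = 0.0423), and Sall4, a zinc finger factor of progenitors, rose by 0.74 ± 0.15 (SE, 0.0327). The list's median was -0.25 over all arrays but 0.19 on the same day, so it had no settled direction. T (brachyury), picked in the same way, had levels of -0.38, -0.57 and -0.30 in CKO 1, 2 and 3, within the range of 0.43, -0.75 and -0.16 in the controls. In control 1 all 10 tail bud genes exceeded the mean of the other controls, with a median excess of 0.90, and against controls 2 and 3 the list's median was -0.01.

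Of 16 genes of the segment border and the early somite, 14 were tested, 2 fell and 0 rose by limma, with 5 lower and 0 higher at an unadjusted p under 0.05. Their median was -0.88 and the same-day median -0.66. Meox1 and Meox2, homeobox genes of the somite, fell by 1.89 ± 0.44 and 1.78 ± 0.30 (SE), with limma adjusted p of 0.0465 and 0.0213. All 14 were higher in control 1, with a median excess of 1.31, and against controls 2 and 3 the median difference was -0.50.

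Of 12 genes of the primitive streak and early mesoderm, where Mesp1 is first active, 3 rose and 0 fell by limma, with 6 higher and 1 lower at an unadjusted p under 0.05. The median was 0.60 and the same-day median 0.53. Eomes, a T-box factor upstream of Mesp1 that trophoblast also expresses, read -1.97, -1.50 and -1.59 in CKO 1, 2 and 3 and -6.02, -4.67 and -3.56 in controls 1, 2 and 3. It rose by 3.07 ± 0.58 (SE, 8.38-fold, limma adjusted p = 0.029). Control 1 lay 1.90 below the mean of controls 2 and 3, and without it the difference was 2.43 (limma adjusted p = 0.0156). The size of the rise thus depends in part on control 1. Control levels down to -6.02 are also dim, though well above background on all 3 controls. How far the size of the Eomes rise depends on the background correction is not given here. Lhx1 and Hand1 rose by 1.35 and 1.41, with limma adjusted p of 0.0356 and 0.0461. Hand1 is also among the 4 trophoblast markers called higher, and it missed the threshold without control 1 (1.16, adjusted p = 0.0583).

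**Figure D5:**
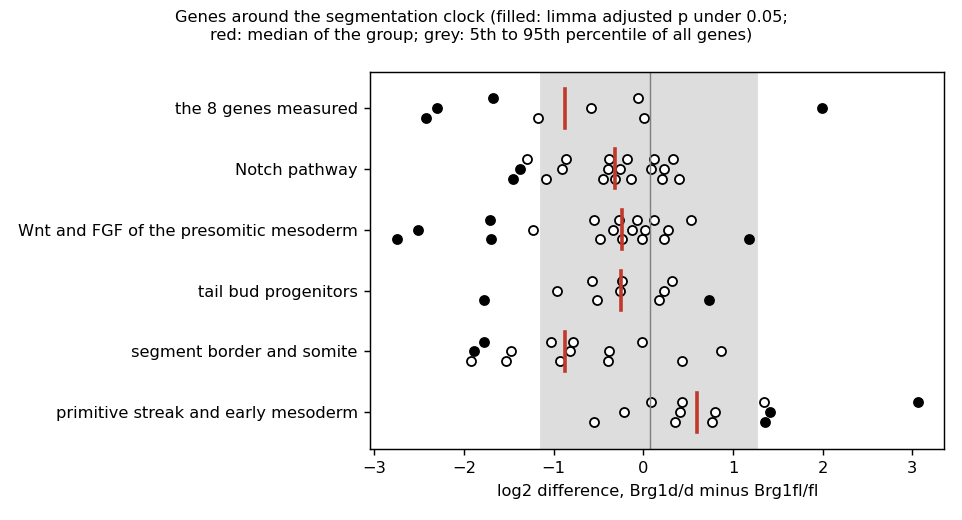
Log2 difference, Brg1d/d minus Brg1fl/fl, of the 8 genes and of the measured genes of the 5 lists, 1 circle per gene, filled where the limma adjusted p is under 0.05. Red bars mark each group's median and the grey band spans the 5th to 95th percentile of all genes, -1.15 to 1.27. Tbx6, Lfng and Dll1 lie below the band, Dll3 just below it, and Mesp1 above it.

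All 9 genes, Ripply2 included, had a RefSeq promoter entry (GRCm38.p6), Dll1 with 2 starts, and the 250 bases before each start were searched on both strands for 4 motifs. The RBPJ core TGGGAA, bound by the nuclear partner of Notch, was in 3 of the 10 windows and in 21.6% of all 32851 windows. The 3 belong to Lfng, with 2 matches, and to Hes7 and Msgn1, with 1 each. The TCF/LEF motif CTTTGA, of the Wnt pathway, was in 2 of 10, those of Mesp1 and Msgn1 with 2 matches each, and in 13.8% of all, and the N-box CACNAG of Hes factors in 4 of 10 and in 36.7% of all. The T-box motif AGGTGTGA was in 0 of 10 and in 1.12% of all. The windows of Lfng and Mesp1, which moved in opposite directions, are shown with their 2 matches of a pathway motif in capitals. Msgn1, which did not pass the test, also held 2 matches of a motif, so this is not particular to genes that moved. The capitals mark RBPJ for Lfng, starting 135 and 108 bases before the start, and TCF/LEF for Mesp1, 72 and 31 bases before it. In both, 1 match is on the opposite strand and appears as its reverse complement, and no match overlaps another in these letters.
Lfng, chr5:140607091-140607340, plus strand: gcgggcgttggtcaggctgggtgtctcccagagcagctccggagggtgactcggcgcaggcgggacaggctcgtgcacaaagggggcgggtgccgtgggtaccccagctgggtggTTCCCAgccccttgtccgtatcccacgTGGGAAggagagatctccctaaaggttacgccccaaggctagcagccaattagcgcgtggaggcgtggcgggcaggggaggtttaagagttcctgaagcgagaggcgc
Mesp1, chr7:79793591-79793840, minus strand: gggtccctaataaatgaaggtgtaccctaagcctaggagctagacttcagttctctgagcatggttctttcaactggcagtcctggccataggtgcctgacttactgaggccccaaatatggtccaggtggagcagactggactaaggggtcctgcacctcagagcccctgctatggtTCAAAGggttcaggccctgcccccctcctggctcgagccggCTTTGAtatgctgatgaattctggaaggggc
A match is a run of letters and does not show that a factor binds there. Hes7 and Lfng both held the RBPJ core, as did 21.6% of all windows. Whether the core bears on the difference of either gene was not tested.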

How the data were processed

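Per the labels' protocols, 250 ng of total RNA per sample was labelled with Cy3. Per the submitters' processing notes and the file headers, the authors made the intensity values with Agilent Feature Extraction 9.5, as background-subtracted, detrended spot signals, with surrogates for dim spots and no scaling between arrays. The deposited series table holds the same intensity values, equal at 100% of spots (relative tolerance 1e-04), and was an alternative.

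Control spots were dropped, as were the 53 to 83 outlier spots of each array. Processed signals were put on a log2 scale, each array's 75th percentile was subtracted, and spots of a probe were averaged. Probes well above background on all 3 arrays of a genotype were kept, 27854 of 41174. Names came from the GRCm38 RefSeq table by accession (22951 probes), symbol (6659) or synonym (3109), and 8455 kept the array's name. A gene was read through its brightest kept probe. Genotypes were compared with limma 3.58.1 (lmFit, eBayes, two-sided) in R 4.3.3. P-values were adjusted over every kept probe by Benjamini-Hochberg, at a threshold of 0.05. The number of arrays limits the precision. The fit was tested on simulated data, where it recovered 7.46% of log2 differences of 1 and 74.6% of those of 2. A gene that did not pass may thus have changed 2-fold.

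The rule for named genes took every member, up to 3 genes per list with the largest difference among those that passed, and the 3 profiles nearest to Tbx6 and to Mesp1. The members and lists were chosen with earlier results of these data known. The alternatives were quantile and median scaling, normexp (offset 50), the series table, no filter and a stricter filter, trend and robust eBayes, scan day, slide, spike-in split and replicate number as blocks, the mean of a gene's probes, and each array left out in turn. Applying them to the lists was added after seeing the data. Of the list genes, Fgf4 and Ripply1 were not analysed here, and Myf5 and the marker Gcm1 had a probe that did not pass the filter. Python 3.11.15 and matplotlib 3.10.9 made the plots.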

Additional observations from a re-analysis of the deposited data

How the results depend on the processing

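The 3 lower calls and 1 higher call among the 8 genes were the same in number under quantile and median scaling, normexp, the series table, and trend and robust eBayes. In these settings 5.3% to 6.95% of all genes were called lower and 4.15% to 6.43% higher. The higher call was 0 with no filter, slide as a random block, the mean of a gene's probes or the replicate block. There 1.61%, 4.39%, 5.77% and 1.76% of all genes were called higher. Each setting had 1 of the 8 higher at an unadjusted p under 0.05. In either direction, 4975 of 19505 genes passed that with no filter, and 4622, 4914 and 4411 of 15027 in the other settings. Lower and higher calls were both 0 with scan day or the spike-in split as a block. Leaving out 1 array in turn gave 0 to 4 lower calls and 0 to 1 higher calls, where 0.783% to 12% of all genes were called higher. Lower calls were 0 without CKO 3, 1 without CKO 1 or control 2, and 2 without control 3. There 1.33%, 1.39%, 1.21% and 3.6% of all genes were called lower. Lfng was not tested under the filter on all 6 arrays, which left 2 lower calls, against 5.17% of all genes. No filter also left 2, against 1.94% of all genes. Hes7 turned to -0.10, -0.083 and -0.12 under quantile, median and normexp processing and ran from -0.40 to 0.34 over the arrays left out, and Mesp2 from -0.56 to 0.29. These 2 genes never passed. The Notch list median was -0.14 with scan day or the spike-in split as a block, against -0.31.

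Over all genes, the 1586 calls became 693 with no filter, 122 with the spike-in split as a block, 0 with scan day as a block (1795 at an unadjusted p under 0.05) and 305 to 2914 without 1 array. The replicate numbers were not shown to pair samples: deviations of same-numbered samples correlated at -0.127, 0.081 and 0.091. With the replicate block 564 genes were called, and 2 of the 8 genes were lower, where 2% of all genes were called lower. The limma adjusted p was 0.0489 for Tbx6, 0.0248 for Lfng, 0.0749 for Dll1 and 0.0544 for Mesp1. No cause of these changes was tested. Signal near background limits Lfng on its first probe. The probes of Msgn1, Mesp2 and Hes7 were dim as well, though well above background on all 6 arrays.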
